A study of Mus musculus with 8 samples.

Results

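The genes described here are 26 members of the cholesterol synthesis pathway and its control by SREBP2, taken by symbol from the 47719 genes of the deposited table. They hold 19 enzymes from acetoacetyl-CoA to cholesterol and to geranylgeranyl diphosphate, 4 regulators of SREBP processing (Srebf2, Scap, Insig1 and Insig2) and 3 other genes (Stard4, Lpin1 and Mylip). Livers of wild type C57BL/6 mice were sequenced in 8 libraries. Extended hepatectomy, in which a surgeon takes out the greater share of the liver, preceded 2 libraries by 14 days and 4 libraries by 2 days, and 2 libraries were from normal control mice aged 10 weeks. The series concerns encapsulated human proliferating hepatocyte organoids in liver failure, and its design text lists EMC-treated control and eLO mice for day 2, with eLO as the sole treatment for day 14. Which day 2 libraries had which treatment is not in the labels, so the 4 formed 1 group, and time, surgery and treatment cannot be told apart in any comparison. Neither the age of the operated mice nor any pooling of animals is stated. Whether each library is its own mouse is not stated either, and p-values therefore cover library-to-library spread, which may be technical. Day 2 replicate 1 is titled as day 1, against day 2 in its age field, and the letters TVR in the title of day 2 replicate 3 are not explained.

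Cholesterol is built in the cytosol and endoplasmic reticulum from acetyl-CoA through mevalonate, isoprenoid diphosphates, squalene and lanosterol. SREBP2, encoded by Srebf2, is a membrane-bound transcription factor that raises nearly all genes of this route. When sterols are low, Scap carries SREBP2 to the Golgi, where it is cut and released to the nucleus. When sterols are high, Insig proteins hold Scap in the endoplasmic reticulum. The liver uses the product for membranes, lipoproteins and bile acids.

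RefSeq promoters on GRCm38.p6 were matched by symbol for 22 of the 26 members. The 250 bases before the start were searched on both strands for CACNCCAC, a core of sterol regulatory elements, and for CCAAT, the NF-Y box often found beside them. CACNCCAC was present in 3 of the 22 members, Acat2, Hmgcs1 and Insig1, and in 5.29% of all 32851 windows of this length. The 4 members with no entry were Sqle, Stard4, Fdps and Fdft1. CCAAT was present in 19 of the 22 members and in 33.8% of all windows. A gene with several starts counted as holding a motif if any of its windows did. Both motifs stood together in the windows of Hmgcs1 and Insig1 and in 1.60% of all windows. A match is a description of letters and not a site. The sequences below are those of Mvk, Insig2 and Mylip, which passed the test in at least 1 comparison, and of Hmgcs1, which holds both motifs. They run 5′ to 3′ on the strand of the gene, and capitals mark bases of either motif, read on either strand.
Mvk, chr5:114444019-114444268, plus strand: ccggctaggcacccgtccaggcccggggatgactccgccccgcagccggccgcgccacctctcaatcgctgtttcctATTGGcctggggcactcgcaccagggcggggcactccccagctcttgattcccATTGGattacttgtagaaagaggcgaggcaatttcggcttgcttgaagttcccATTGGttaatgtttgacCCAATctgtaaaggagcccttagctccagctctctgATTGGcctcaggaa
Insig2, chr1:121332590-121332839, minus strand, the most upstream of its 3 starts: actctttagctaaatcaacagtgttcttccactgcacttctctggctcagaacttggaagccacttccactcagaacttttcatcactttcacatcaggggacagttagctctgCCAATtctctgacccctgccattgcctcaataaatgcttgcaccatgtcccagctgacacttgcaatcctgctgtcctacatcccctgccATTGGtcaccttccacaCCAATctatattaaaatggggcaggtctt
Mylip, chr13:45389492-45389741, plus strand: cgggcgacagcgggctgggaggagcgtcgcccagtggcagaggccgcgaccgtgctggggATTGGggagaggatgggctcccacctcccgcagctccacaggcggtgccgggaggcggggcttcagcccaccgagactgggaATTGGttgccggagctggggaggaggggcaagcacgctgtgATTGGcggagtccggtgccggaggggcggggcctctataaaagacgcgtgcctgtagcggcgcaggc
Hmgcs1, chr13:119690101-119690350, plus strand: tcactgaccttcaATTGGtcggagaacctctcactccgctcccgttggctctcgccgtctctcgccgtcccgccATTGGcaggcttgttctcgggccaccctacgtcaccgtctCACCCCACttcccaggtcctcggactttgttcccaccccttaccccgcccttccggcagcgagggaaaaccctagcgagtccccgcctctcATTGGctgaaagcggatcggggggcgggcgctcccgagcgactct
The capitals of the Mvk, Insig2 and Mylip windows are all CCAAT boxes, and Hmgcs1 has the sterol element core as CACCCCAC. The windows of the other Insig2 starts held neither motif.

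Values are FPKM, which divide fragments by transcript length and by a measure of library size, so levels can be set beside each other between genes. The libraries listed 10796 to 11197 genes at 1 FPKM or more, and the 12340 genes that reached 1 FPKM in 2 or more libraries were tested, all 26 members among them. Read counts, and so the depth behind each value, are not known. Hepatocyte markers, 7 of 7 tested and with Alb the largest share, summed to 39026 to 47485 FPKM at day 14, 27557 to 64873 at day 2 and 42454 to 47858 in normal control. Of these Cps1 fell at day 2 against normal control, with a log2 change of -1.73 ± 0.53 (limma adjusted p = 0.0499). Markers of cycling cells summed to 7.57 and 8.01 FPKM at day 14, 2.604 and 1.29 FPKM in day 2 replicates 1 and 2 and to 381 and 551 in replicates 3 and 4, against 6.13 and 7.42 in normal control. Neutrophil markers summed to 15.7 to 70.1 FPKM at day 14, 31.6 to 320 at day 2 and 4.12 to 7.78 in normal control. Of 6 listed neutrophil markers 4 passed the filter, and Mpo was at 0 in both controls. Kupffer cell markers, 5 of 5 tested, summed to 46.9 to 47.7 FPKM at day 14, 73.9 to 143 at day 2 and 75.8 to 91.8 in normal control. Among them Marco rose by 3.96 log2 units at day 2, and Vsig4 had a change of -1.76 and fell at day 14, both against normal control. At day 2 Clec4f, Vsig4, Cd5l and Timd4 had changes of -0.63, -0.52, -0.47 and -0.20 against normal control, which did not pass. Marco itself made up 33.4 to 80.4 FPKM of the day 2 sums, against 2.38 and 1.82 FPKM in normal control. Monocyte markers, 5 of 6 tested and Chil3 at 0 in both controls, summed to 26.1 to 27.3 FPKM at day 14, 36.9 to 119 at day 2 and 34.5 to 44.9 in normal control. S100a4, S100a6 and Ly6c2 rose at day 2, with changes of 2.36, 2.68 and 1.06, and Lyz2 fell at day 14, with a change of -1.49, all against normal control. At day 14 S100a4, S100a6, Chil3 and Ly6c2 had changes of 1.63, 1.24, 1.82 and -0.00078 against normal control, which did not pass. Lyz2 made up 10.6 and 13.8 FPKM of the day 14 sums, against 40.9 and 31.3 FPKM in normal control. At day 2 Chil3, at 3.01, and Lyz2, at -0.48, did not pass. Sinusoidal endothelial markers, 5 of 5 tested, summed to 19.9 to 37.8 FPKM at day 14, 16.8 to 57.3 at day 2 and 68.3 to 72.2 in normal control. In bulk liver, fewer cells of a type and less RNA per cell cannot be told apart, and the part of these cell types in the values below was not tested.

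Day 2 against normal control addressed the pathway early after surgery. No member rose, and 4 of 26 (15.4%) fell: Idi1, Tm7sf2, Lpin1 and Mylip, with log2 changes of -2.62, -1.67, -1.26 and -1.32. At an unadjusted p under 0.05 limma gave 0 higher and 6 lower. The share of all genes at that threshold was not counted, so nothing is read from these 2 counts. Over all genes tested 21.2% were called, 9.72% higher and 11.5% lower, so the share of members called lower was near the background (limma, Benjamini-Hochberg adjusted p under 0.05 over all genes). The median change of the members was -0.0202 log2 units, beside 0.0538 over all genes. Leaving out each library in turn gave medians of -0.257 to 0.335, the highest without day 2 replicate 4. The median of the absolute changes was 0.403 log2 units for the members and 0.538 for all genes. All 4 day 2 libraries were below both controls for 7 members (26.9%), against 25.4% of all genes, and above them for 0 members, against 26.1%. The members spread widely between the day 2 libraries. Their SD among the 4 day 2 libraries had a median of 0.927 log2 units, against 0.361 over all genes tested.

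**Figure D1:**
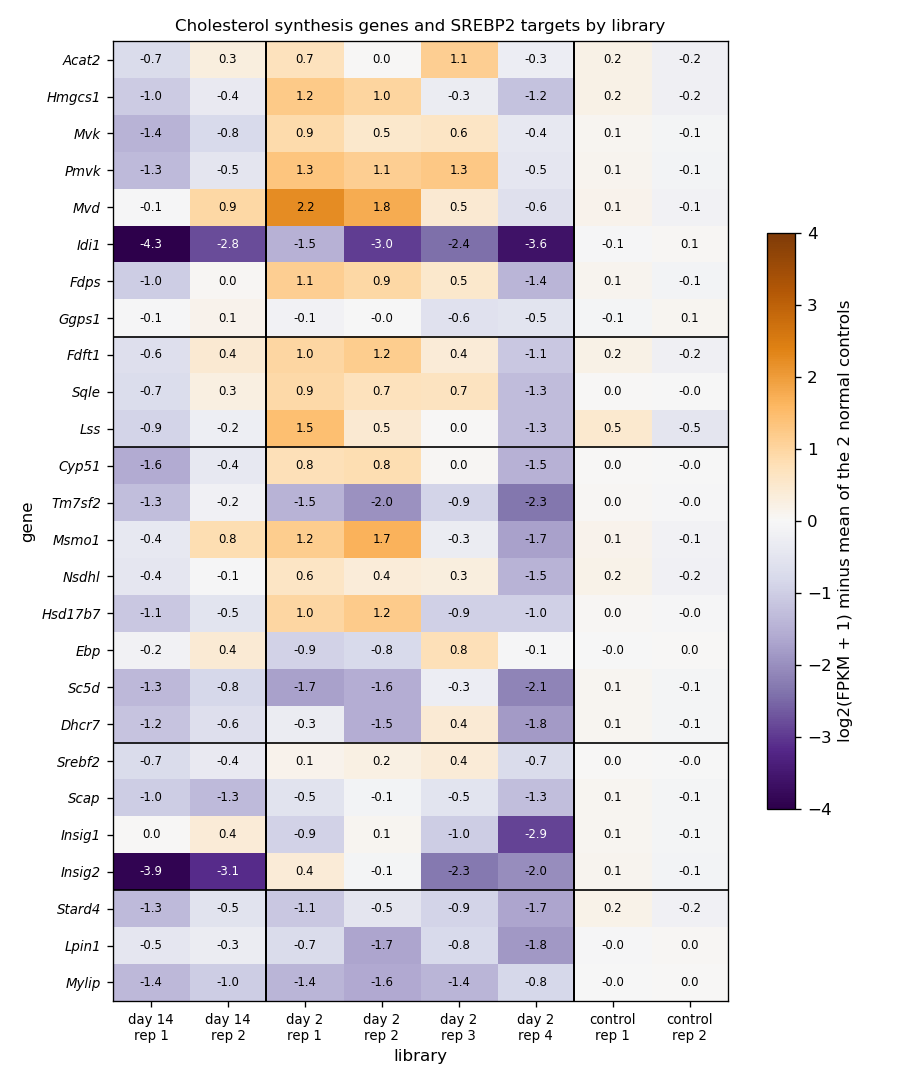
Level of each member (rows, grouped by role) in each library (columns), as log2(FPKM + 1) minus the mean of the 2 normal controls, printed in each cell. Most enzymes were above control in day 2 replicates 1 and 2, and all members were below both controls in day 2 replicate 4. Idi1, Tm7sf2, Sc5d, Scap, Stard4, Lpin1 and Mylip were below both controls in all 6 libraries after hepatectomy. The share of all genes with that pattern was not counted.

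The early enzymes make mevalonate and turn it into isoprenoid units. Hmgcs1, the cytosolic synthase that condenses acetyl-CoA units, had 31.9 and 51.8 FPKM at day 14, 159, 135, 54.6 and 28.1 FPKM in day 2 replicates 1 to 4, and 77.6 and 57.3 FPKM in normal control. Day 2 lay on both sides of the controls, and both day 14 values were below them. Its log2 change was 0.19 ± 0.65 (SE) at day 2 against normal control (limma adjusted p = 0.858) and -0.70 ± 0.75 at day 14 against normal control (limma adjusted p = 0.580). Mvk, mevalonate kinase, had 4.97 and 8.29 FPKM at day 14, 29.1, 22.3, 23.6 and 11.4 FPKM at day 2, and 16.3 and 14.2 FPKM in normal control. The day 14 values were below every other library. Mvk lies on chromosome 5 of GRCm38 at 114444269 to 114460591. Hmgcs1 shares 557 exon bases with Gm48342 on the opposite strand, for which no level was analysed here.

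Pmvk, phosphomevalonate kinase, had 10.8 and 20.3 FPKM at day 14, 75.2, 65.6, 72.0 and 20.96 FPKM at day 2, and 31.4 and 26.8 FPKM in normal control. Day 2 replicates 1 to 3 were above both controls and replicate 4 below them. Its change at day 2 was 0.83 ± 0.52 log2 units (limma adjusted p = 0.275). Without day 2 replicate 4 it was 1.26 ± 0.30 and passed (limma adjusted p = 0.0314). Of the 8 fits that each left out 1 library, only that 1 passed for Pmvk. Mvd, the decarboxylase that follows, averaged 10.4 ± 5.38 FPKM (SD, n = 2) at day 14, 19.0 ± 14.6 FPKM (n = 4) at day 2 and 6.95 ± 1.08 FPKM (n = 2) in normal control, and ranged 8.52-fold between the day 2 libraries. Acat2, the thiolase at the head of the route, ranged from 10.8 to 42.5 FPKM over all 8 libraries. Ggps1, which makes geranylgeranyl diphosphate for protein prenylation, kept to 1.42 to 2.96 FPKM over all 8 libraries and had the smallest range among the day 2 libraries of any member, 0.56 log2 units.

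Idi1, which interconverts the isopentenyl and dimethylallyl diphosphates, was far below control at both times. It had 2.48 and 9.26 FPKM at day 14, 24.1, 8.04, 12.3 and 4.80 FPKM in day 2 replicates 1 to 4, and 67.0 and 72.7 FPKM in normal control. All 6 libraries after hepatectomy were below both controls, and day 14 and day 2 overlapped. Idi1 fell by 2.62 ± 0.60 log2 units at day 2 (limma adjusted p = 0.0209) and had a change of -3.57 ± 0.69 at day 14 (limma adjusted p = 0.0296). The day 2 call passed in 6 of 8 fits that each left out 1 library and missed without normal control replicate 1 or normal control replicate 2 (limma adjusted p from 0.141 to 0.156). At day 2 Idi1 further missed with no filter on low values (limma adjusted p = 0.0508). The day 14 call passed in 5 of 8 fits that each left out 1 library and missed without day 14 replicate 1, normal control replicate 1 or normal control replicate 2 (limma adjusted p from 0.176 to 0.233). At day 14 Idi1 further missed with no filter on low values (limma adjusted p = 0.0539). Idi1 lies on chromosome 13 of GRCm38 at 8885501 to 8892451 and shares 323 exon bases with Gm48574 on the opposite strand, for which no level was analysed here, so its levels carry the same doubt about strand as other overlapping genes. Its near relative Idi2 was listed at 0 in all 8 libraries. Fdps, the synthase that uses the product of Idi1 to make farnesyl diphosphate, passed the test in no comparison. Fdps had 77.4 and 161 FPKM at day 14, 348, 303, 223 and 58.3 FPKM at day 2, and 169 and 146 FPKM in normal control. Fdps shares 1124 exon bases with Gm43738 on the same strand, which was at 0 to 0.0615 FPKM. The ratio of Fdps to Idi1 within a library, which scaling of a whole library leaves as it is, was 31.1 and 17.4 at day 14 and 14.4, 37.7, 18.1 and 12.1 at day 2, against 2.52 and 2.01 in normal control. The ratio was above both controls in all 6 libraries after hepatectomy. Idi1, its denominator, was below both controls in the same libraries, so the ratio is not a separate result. The difference between the genes was not tested.

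Squalene and lanosterol formation had no called member. Sqle, the epoxidase that is a rate-limiting step of the later pathway, had 9.61 and 19.5 FPKM at day 14, 31.2, 26.8, 26.1 and 5.94 FPKM at day 2, and 16.3 and 16.0 FPKM in normal control. Day 2 replicates 1 to 3 were above the controls and replicate 4 was the lowest of all 8 libraries. Its log2 change was 0.24 ± 0.60 at day 2 (limma adjusted p = 0.794) and -0.21 ± 0.70 at day 14 (limma adjusted p = 0.880), both against normal control. Fdft1, squalene synthase, had 10.8 FPKM in day 2 replicate 4 and 31.9 to 55.6 FPKM in the other 3 day 2 libraries. Its annotated exons share 774 bases with Ctsb on the opposite strand, a gene at 55.2 to 110 FPKM, so Fdft1 levels are uncertain because the strand setting of the counting is not given. Lss, lanosterol synthase, had controls far apart at 24.2 and 11.8 FPKM. Lss shares 381 exon bases with 4930483K19Rik on the opposite strand, which was at 0 to 0.225 FPKM.

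Of the 8 enzymes from lanosterol to cholesterol, Tm7sf2 was called. This sterol reductase had 40.8 and 89.4 FPKM at day 14, 35.7, 25.1, 53.3 and 19.1 FPKM at day 2, and 104 and 97.1 FPKM in normal control. All 6 libraries after hepatectomy were below both controls, and day 14 overlapped day 2. Tm7sf2 fell by 1.67 ± 0.44 log2 units at day 2 (limma adjusted p = 0.0332), lies on chromosome 19 of GRCm38 at 6062821 to 6068373 and shares 14 exon bases with Vps51 on the same strand. Its call passed in 3 of 8 fits that each left out 1 library and missed without day 2 replicate 1, day 2 replicate 2, day 2 replicate 4, normal control replicate 1 or normal control replicate 2 (limma adjusted p from 0.0521 to 0.201). At day 2 Tm7sf2 further missed with no filter on low values (limma adjusted p = 0.0677). Sc5d, the sterol desaturase, had 79.7 and 115 FPKM at day 14, 60.9, 68.9, 168 and 45.8 FPKM at day 2, and 216 and 193 FPKM in normal control. All 6 libraries after hepatectomy were below both controls, yet the day 2 change of -1.42 ± 0.47 did not pass (limma adjusted p = 0.0655). It passed without day 2 replicate 3, at -1.80 ± 0.29 (limma adjusted p = 0.00672). Of the 8 fits that each left out 1 library, only that 1 passed for Sc5d.

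The other late enzymes differed widely between day 2 libraries. Msmo1, the methylsterol oxidase, had the widest range of all members at day 2, with 157, 224, 56.4 and 20.0 FPKM, an 11.2-fold span. Cyp51, the lanosterol demethylase, had 61.1, 65.0, 37.0 and 12.1 FPKM at day 2, against 36.2 and 35.4 FPKM in normal control. Its span was 5.37-fold at day 2. Hsd17b7, a ketosteroid reductase, had 26.9 and 31.97 FPKM in day 2 replicates 1 and 2 and 6.39 and 6.35 FPKM in replicates 3 and 4. Ebp, the sterol isomerase, ran the other way, with 73.1 and 80.4 FPKM in replicates 1 and 2 and 239 and 135 FPKM in replicates 3 and 4. Nsdhl, a sterol dehydrogenase, ranged from 8.99 to 41.2 FPKM over all libraries. Dhcr7, which acts near the end of the route, ranged from 12.6 to 64.4 FPKM. Cyp51 shares 166 exon bases with Akap9 on the opposite strand, which was at 3.42 to 9.51 FPKM.

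**Figure D2:**
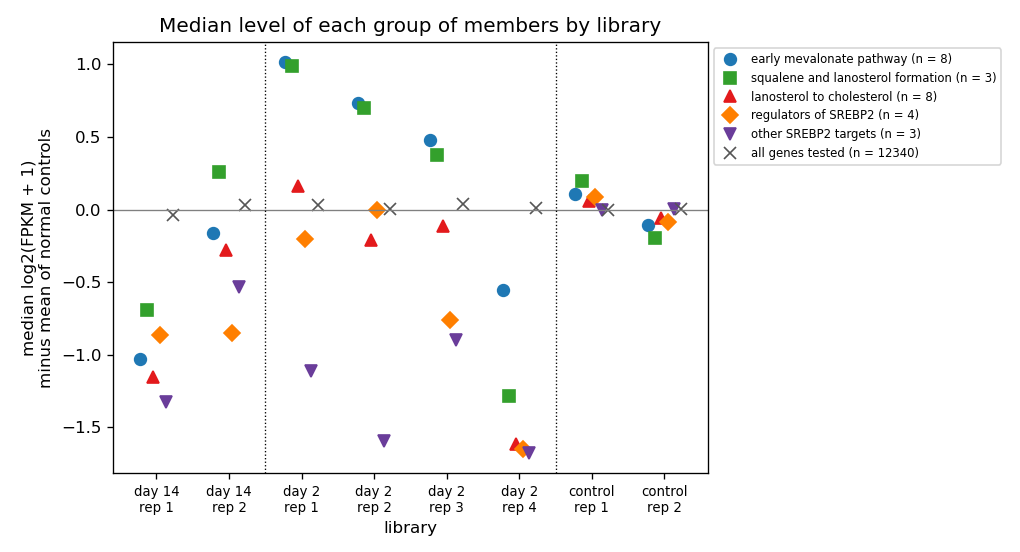
Median of log2(FPKM + 1) minus the mean of the normal controls for each group of members and for all genes tested, in each library. The early mevalonate group stood at 1.02, 0.73, 0.48 and -0.55 on this scale for day 2 replicates 1 to 4, while the median of all genes stayed between -0.04 and 0.04.

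Read by library, the median of all members at day 2 was highest in replicate 1 and lowest in replicate 4. The median of the 26 members against the control mean, on the log2 scale, was -1.01 and -0.32 in day 14 replicates 1 and 2. It was 0.51, 0.16, -0.13 and -1.29 for day 2 replicates 1 to 4, and 0.09 and -0.09 in the controls. The groups of members differed in this. The enzymes from lanosterol to cholesterol had medians of 0.16, -0.21, -0.12 and -1.61 in day 2 replicates 1 to 4, the regulators -0.20, -0.00638, -0.76 and -1.65, and Stard4, Lpin1 and Mylip -1.11, -1.60, -0.90 and -1.68. Replicate 1 was above both controls for 57.7% of members, against 46.8% of all genes, replicate 2 for 46.2%, against 46.4%, and replicate 3 for 46.2%, against 47.0%. Replicate 4 was the lowest day 2 library for 22 of 26 members (84.6%), against 24.7% of all genes tested. All 26 members were below both controls in replicate 4, against 44.6% of all genes. Replicates 1 and 2 were both above replicates 3 and 4 for 13 members (50%), among them Hmgcs1, Mvd, Fdps, Sqle, Cyp51 and Msmo1, and below them for 1, Ebp. Over all genes these shares were 27.4% and 26.7%. Replicate 4 was the lowest day 2 library for 22 of 26 members, so these counts are not separate from that order. With libraries rescaled by their median ratio the members' medians were 0.50, 0.16, -0.14 and -1.29 in replicates 1 to 4. The cycling marker sums given above were low in replicates 1 and 2 and high in replicates 3 and 4. Their part in these differences was not tested.

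Among the regulators, Srebf2 itself passed the test in no comparison. It had 6.32 and 8.36 FPKM at day 14, 12.2, 13.3, 14.7 and 6.19 FPKM at day 2, and 11.2 and 10.9 FPKM in normal control. Day 2 replicate 4 was the lowest of all 8 libraries and both day 14 values were below the controls. Its log2 change was 0.00465 ± 0.33 at day 2 (limma adjusted p = 0.994) and -0.54 ± 0.38 at day 14 (limma adjusted p = 0.372), both against normal control. The day 2 value changed sign under several settings given further on. Scap, the escort of SREBP2, had 15.4 and 12.1 FPKM at day 14, 21.7, 29.5, 22.2 and 12.6 FPKM at day 2, and 34.0 and 30.3 FPKM in normal control. All 6 libraries after hepatectomy were below both controls. Its changes of -0.61 ± 0.32 at day 2 (limma adjusted p = 0.196) and -1.17 ± 0.37 at day 14 (limma adjusted p = 0.0770) did not pass. The day 14 change passed with only day 14 and normal control in the fit (limma adjusted p = 0.0220). Scap shares 785 exon bases with 5830462I19Rik on the opposite strand, which was at 0.0606 to 0.338 FPKM.

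Of the Insig genes, which hold Scap back, Insig2 was called and Insig1 was not. Insig2 had 14.5 and 25.4 FPKM at day 14, 304, 218, 46.0 and 56.2 FPKM in day 2 replicates 1 to 4, and 248 and 213 FPKM in normal control. Both day 14 values were below every other library, and day 2 held values on both sides of the controls. Insig2 fell by 3.51 ± 0.87 log2 units at day 14 against normal control (limma adjusted p = 0.0447). This call passed in 4 of 8 fits that each left out 1 library and missed without day 14 replicate 1, day 14 replicate 2, normal control replicate 1 or normal control replicate 2 (limma adjusted p from 0.0862 to 0.248). At day 14 Insig2 further missed with no filter on low values (limma adjusted p = 0.0882) and with the length and GC trend removed (limma adjusted p = 0.0726). Its change at day 14 against day 2, -2.51 ± 0.75, did not pass (limma adjusted p = 0.0557). Insig2 lies on chromosome 1 of GRCm38 at 121304353 to 121332589, and the table gives 1 value per gene, so its 3 starts cannot be told apart. In mouse liver its main transcript is known to be lowered by insulin.

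Insig1, itself a well known target of SREBP2, had 103 and 134 FPKM at day 14, 53.8, 107, 50.04 and 13.0 FPKM at day 2, and 109 and 96.2 FPKM in normal control. Day 14 overlapped the controls, and 3 of 4 day 2 libraries were below them. Its log2 change was -1.19 ± 0.68 at day 2 (limma adjusted p = 0.234) and 0.20 ± 0.78 at day 14 (limma adjusted p = 0.901), both against normal control. The ratio of Insig2 to Insig1 within a library was 0.141 and 0.189 at day 14 and 5.66, 2.04, 0.919 and 4.33 at day 2, against 2.28 and 2.21 in normal control. The day 14 ratios were below every other library. The difference between the genes was not tested.

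**Figure D3:**
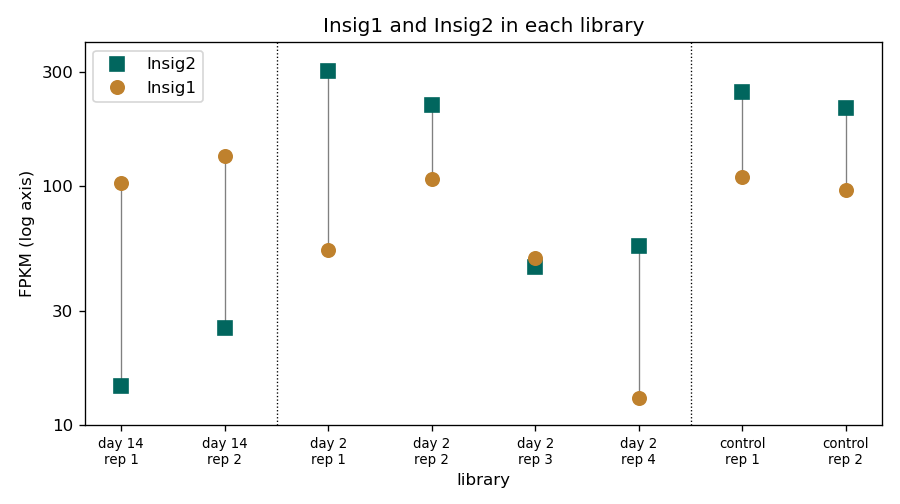
FPKM of Insig2 (squares) and Insig1 (circles) in each library on a log axis, joined by a line within a library. Insig2 stood above Insig1 in both normal controls and below it in both day 14 libraries, at 14.5 against 103 FPKM and 25.4 against 134 FPKM.

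Mylip, Lpin1 and Stard4 are not enzymes of the route. Mylip is a ubiquitin ligase for lipoprotein receptors and is best known as a target of the sterol receptor LXR, although it is grouped here with other SREBP2 targets. It had 0.890 and 1.42 FPKM at day 14, 0.837, 0.613, 0.803 and 1.75 FPKM at day 2, and 3.87 and 3.88 FPKM in normal control. All 6 libraries after hepatectomy were below both controls, whose values nearly coincided. Mylip fell by 1.32 ± 0.26 log2 units at day 2 (limma adjusted p = 0.0125) and by 1.19 ± 0.30 at day 14 (limma adjusted p = 0.0457). At day 2 it passed in 6 of 8 fits that each left out 1 library and missed without normal control replicate 1 or normal control replicate 2 (limma adjusted p from 0.122 to 0.131). At day 14 it passed in 2 of 8 fits that each left out 1 library and missed without day 14 replicate 1, day 14 replicate 2, day 2 replicate 1, day 2 replicate 3, normal control replicate 1 or normal control replicate 2 (limma adjusted p from 0.0508 to 0.258). At day 14 Mylip further missed with a pseudocount of 0.1 (limma adjusted p = 0.0726), with no filter on low values (limma adjusted p = 0.0814) and with the length and GC trend removed (limma adjusted p = 0.066). The day 14 change was -1.70 with a pseudocount of 0.1, since adding 1 FPKM makes changes at such low levels smaller. Mylip lies on chromosome 13 of GRCm38 at 45389742 to 45412022.

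Lpin1, a phosphatidate phosphatase of glycerolipid synthesis and a known SREBP target, had 17.5 and 20.1 FPKM at day 14, 14.5, 6.99, 13.9 and 6.14 FPKM at day 2, and 24.1 and 25.2 FPKM in normal control. The 3 groups did not overlap, with day 2 lowest and control highest. Lpin1 fell by 1.26 ± 0.35 log2 units at day 2 (limma adjusted p = 0.0391), and its changes at day 14 of -0.37 ± 0.41 against normal control (limma adjusted p = 0.583) and 0.89 ± 0.35 against day 2 (limma adjusted p = 0.118) did not pass. The day 2 call passed in 2 of 8 fits that each left out 1 library and missed without day 14 replicate 1, day 14 replicate 2, day 2 replicate 2, day 2 replicate 4, normal control replicate 1 or normal control replicate 2 (limma adjusted p from 0.056 to 0.222). At day 2 Lpin1 further missed with no filter on low values (limma adjusted p = 0.0756), with the length and GC trend removed (limma adjusted p = 0.0663) and with a fit of the 2 groups alone (limma adjusted p = 0.0577). Lpin1 lies on chromosome 12 of GRCm38 at 16535669 to 16610966. Stard4, a cytosolic sterol carrier, averaged 11.5 ± 4.73 FPKM (SD, n = 2) at day 14, 10.6 ± 3.78 FPKM (n = 4) at day 2 and 22.1 ± 3.67 FPKM (n = 2) in normal control. All 6 libraries after hepatectomy were below both controls, and its change at day 2 of -1.05 ± 0.36 did not pass (limma adjusted p = 0.0706).

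**Figure D4:**
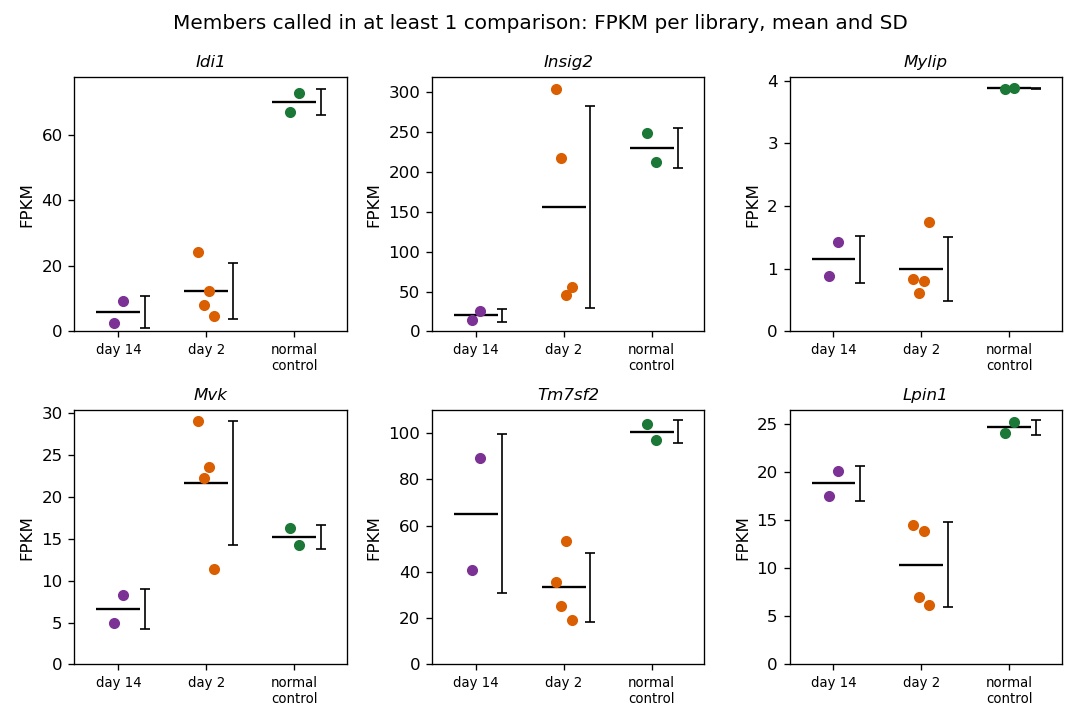
FPKM per library (points) with the mean (line) and SD (bar) for the 6 members called in at least 1 comparison, by group. Idi1, Tm7sf2, Lpin1 and Mylip were below both normal controls in all 6 libraries after hepatectomy, and Insig2 and Mvk were lowest at day 14.

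Day 14 against normal control addressed the pathway at the later time. No member rose and 3 of 26 (11.5%) fell, Idi1, Insig2 and Mylip, against 9.79% of all genes called, 5.21% higher and 4.58% lower. The median change of the members was -0.629 log2 units, beside -0.00208 over all genes. It was -0.32 log2 units without day 14 replicate 1 and -1.01 without replicate 2. Of the 26 members 21 had a change below 0, and at an unadjusted p under 0.05 limma gave 0 higher and 5 lower. The shares of all genes by sign and at that threshold were not counted, so nothing is read from these counts. Both day 14 libraries were below both controls for 15 members (57.7%), against 35.7% of all genes, and above them for 0 members, against 35.3%. Replicate 1 was below replicate 2 for 25 of 26 members (96.2%), against 54.2% of all genes, and Scap was the exception. The most abundant transcript, mt-Co1, had 143581 FPKM in replicate 1 and 47646 FPKM in replicate 2, and its part in this order was not tested.

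The comparison of day 14 with day 2 shares libraries with those above. Of 26 members 1 fell (3.85%), Mvk, by 1.53 ± 0.36 log2 units (limma adjusted p = 0.0287), and none rose, against 16.1% of all genes called, 9.09% higher and 7.03% lower. The call of Mvk passed in 3 of 8 fits that each left out 1 library and missed without day 14 replicate 1, day 14 replicate 2, day 2 replicate 1, normal control replicate 1 or normal control replicate 2 (limma adjusted p from 0.0525 to 0.249). Mvk further missed with no filter on low values (limma adjusted p = 0.0572) and with a fit of the 2 groups alone (limma adjusted p = 0.0578). At an unadjusted p under 0.05 limma gave 3 members lower and 1 higher, and the share of all genes at that threshold was not counted. Pmvk had a change of -1.75 ± 0.52 (limma adjusted p = 0.0541). The median change of the members was -0.491 log2 units, beside -0.0288 over all genes, and -0.0182 without day 14 replicate 1. Day 14 was below all day 2 libraries for 3 members, Mvk, Pmvk and Insig2, against 20.4% of all genes. It was above them for 1 member, Lpin1, against 21.2%.

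**Figure D5:**
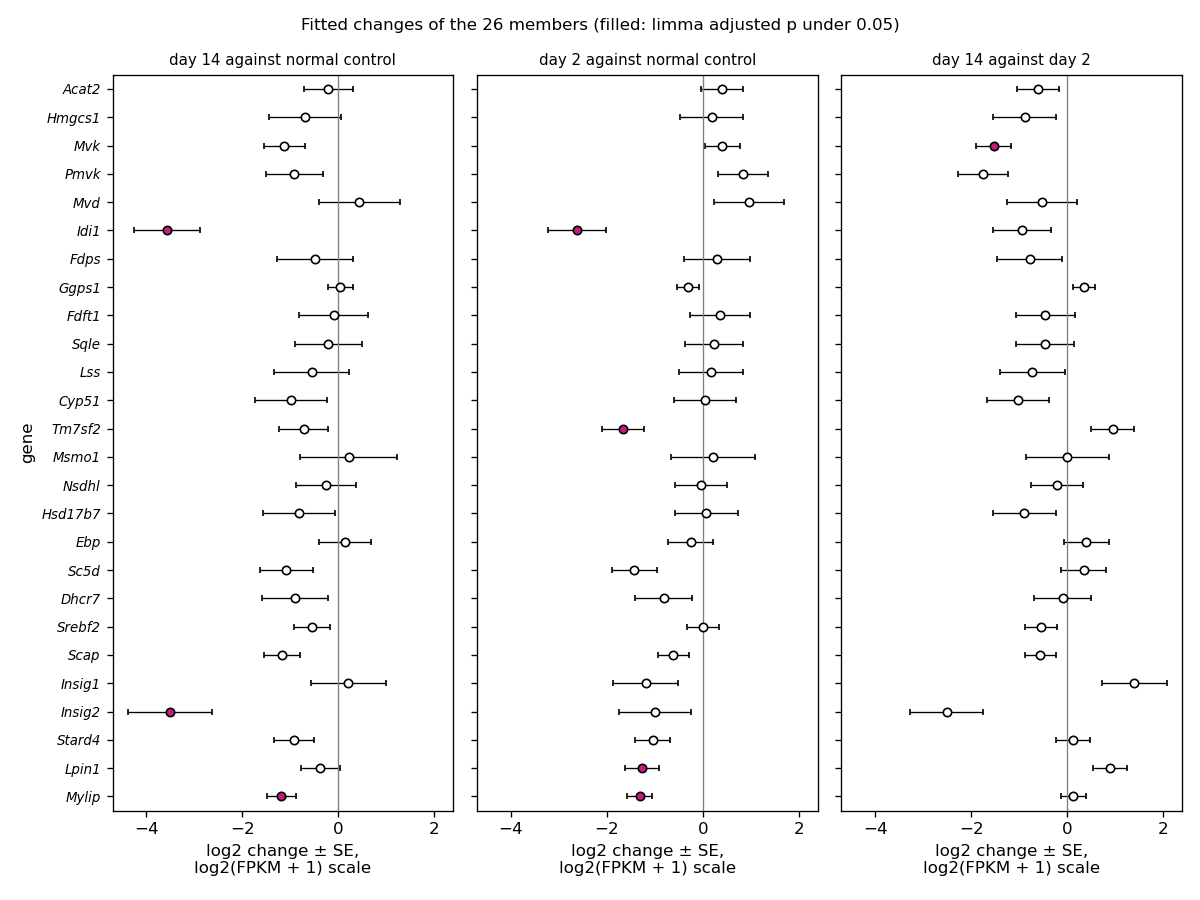
Fitted log2 change with its standard error for the 26 members in each comparison, on the log2(FPKM + 1) scale, filled where the limma adjusted p was under 0.05. The called members are Idi1, Insig2 and Mylip at day 14 against normal control, Idi1, Tm7sf2, Lpin1 and Mylip at day 2 against normal control, and Mvk at day 14 against day 2.

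Other genes around the pathway were counted from 5 lists. Their counts stand beside the shares of all genes called, which were 9.72% higher and 11.5% lower at day 2 against normal control, 5.21% and 4.58% at day 14 against normal control, and 9.09% and 7.03% at day 14 against day 2. With lists this short nothing particular to a list is read from its count. Of 13 isoprenoid branch enzymes, 3 rose and 1 fell at day 2 against normal control. Rce1, which trims prenylated proteins, rose by 1.13 ± 0.18 log2 units, Pdss1, which makes the ubiquinone side chain, by 1.09 ± 0.32, and Pggt1b, a subunit of geranylgeranyl transferase, fell by 1.21 ± 0.26 (limma adjusted p = 0.00667, 0.0429 and 0.0175). At day 14 Pggt1b alone fell against normal control, and 3 of the 13 fell against day 2, Fntb, Fnta and Rce1. Of 13 genes for SREBP cleavage and sterol-regulated degradation, 3 fell and 0 rose at day 2 against normal control, all 3 being parts of the degradation machinery of the endoplasmic reticulum. They were Marchf6, Rnf139 and Erlin2, with changes of -1.25, -0.88 and -0.70 log2 units. Marchf6 and Tmed2, at -1.52 and -1.34, fell at day 14 against normal control, and Ube2g2 and Tmed2 fell at day 14 against day 2.

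SREBP1 and fatty acid synthesis gave 16 tested of 17 listed genes. At day 2 against normal control 4 fell and 0 rose, with a median change of -0.81 log2 units, beside 0.0538 over all genes, of which 11.5% were called lower. Acss2, acetyl-CoA synthetase, fell by 2.44 ± 0.64, Gpam, an acyltransferase of triglyceride synthesis, by 1.75 ± 0.42 and Mlxipl, the carbohydrate-responsive factor ChREBP, by 1.69 ± 0.43 (limma adjusted p = 0.0318, 0.0245 and 0.0301). At day 14 against day 2, 4 rose and 0 fell, where 9.09% of all genes were called higher. Thrsp, a lipogenic nuclear protein, rose by 4.99 ± 1.00, and Aacs, which makes acetoacetyl-CoA in the cytosol, and Mlxipl both rose by 2.74 (limma adjusted p = 0.0170, 0.00722 and 0.00855). Srebf1, the relative of Srebf2, was the other riser. It had 146 and 143 FPKM at day 14, 21.2, 55.5, 59.1 and 25.99 FPKM at day 2, and 57.6 and 43.7 FPKM in normal control. Both day 14 values of Srebf1 were above every other library. Its change at day 14 against day 2 was 1.94 ± 0.43 (limma adjusted p = 0.0230), while that of Srebf2 was -0.55 ± 0.33 (limma adjusted p = 0.270). The difference between these genes was not tested. At day 14 against normal control Aacs rose by 2.41 ± 0.46 and Gpam fell by 2.04 ± 0.49. The median change of the list was -0.82 log2 units in that comparison, beside -0.00208 over all genes. The listed genes were split there, with limma giving 3 higher and 4 lower at an unadjusted p under 0.05. The share of all genes at that threshold was not counted. At day 14 against day 2 the median of the list was 0.99, beside -0.0288 over all genes.

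Of the LXR receptors and sterol efflux genes, 8 of 9 were tested and 0 passed in any comparison. At an unadjusted p under 0.05 limma gave 0 higher and 0 lower at day 14 against normal control, 0 higher and 1 lower at day 2 against normal control, 0 higher and 0 lower at day 14 against day 2. The share of all genes at that threshold was not counted. The median changes of that list were between -0.10 and -0.08 log2 units. Of 14 tested genes for cholesterol trafficking, esterification and uptake, 2 fell at day 2 against normal control, Scp2 and Stard5. At day 14 against normal control Gramd1a, a sterol transporter between membranes, rose by 1.53 ± 0.36 and Lipa, the lysosomal acid lipase, fell by 1.49 ± 0.32 log2 units (limma adjusted p = 0.0402 and 0.0333). At day 14 against day 2 Gramd1c and Stard5 rose and Npc2 fell.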

How the data were processed

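RNA from 8 mouse liver libraries was analysed from 1 deposited table with FPKM for each gene and library, as named per the file headers. Tools named in the submitters' processing notes are Cufflinks 2.2.1, HISAT2 2.10, DESeq2 and HTSeq, and the notes name both mm9 and GRCm38. Which of them made the FPKM values, on which annotation, and whether libraries were scaled to each other, is not given in the sources used here. FPKM took a pseudocount of 1 and were put on the log2 scale, a gene needed 1 FPKM or more in 2 libraries, and 3 group means were fitted over 12340 genes by limma 3.58.1 (R 4.3.3, trend on; residual degrees of freedom 5, median prior 3.23). A call is a p under 0.05 after Benjamini-Hochberg adjustment over those genes. The method was tested on simulated data. Alternatives were another pseudocount, filter, scaling or set of groups, no trend, leaving out each library, and values freed of their dependence on length and GC (GENCODE M21, splines with 4 degrees of freedom). The members, lists and tests were chosen with earlier results of these data known. All 26 members are named, with every library given for called members and for Srebf2, Scap, Insig1, Insig2, Hmgcs1 and Sqle. Marker genes, other members given by library, and Srebf1, were chosen after their values were seen. From each other list up to 3 called genes per comparison, those of largest change, are named. Gene names are those of the table, except Marchf6, listed there under a date and matched by identifier. Coordinates are from GENCODE M21 on GRCm38 and promoters from RefSeq. Depth per library is unknown. A rough estimate from very low values, relative to normal control replicate 1, gave 0.625 for day 14 replicate 1 and 0.835 to 1.13 for the other libraries. For day 14 replicate 1 it rests on 16 genes, and its part in the results was not tested. Figures used matplotlib 3.10.9 in Python 3.11.15.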

Additional observations from a re-analysis of the deposited data

Results flagged for a closer look

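Among the 4 day 2 libraries, replicate 4 stood apart from the others for 3 of the 26 members (26 groups examined). The measure was Dixon's gap ratio on log2(FPKM + 1), whose limit chance alone exceeds in about 1 of 20 independent groups. The share of all genes above that limit was not counted. Replicate 4 was the lowest day 2 library for 22 of 26 members, so the 3 flags are not separate results. The ratio of the gap of replicate 4 to the whole range was 0.892 for Pmvk, 0.886 for Sqle and 0.854 for Nsdhl, above the critical value of 0.829. These genes were at 20.96, 5.94 and 8.99 FPKM there, and at no less than 65.6, 26.1 and 33.2 FPKM in the other 3 day 2 libraries. The differences of the day 14 and day 2 libraries from normal control were unequal for Mvk, by -1.53 log2 units at day 14 against day 2 in the fit over all genes (limma adjusted p = 0.0287), a call that ended in 5 of 8 fits that each left out 1 library. Time and treatment cannot be told apart in it.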

How the results depend on the processing

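The small number of controls limits the calls: without either control replicate no member was called against normal control, and without day 14 replicate 1 no gene was called at day 14 against normal control. The causes were not tested. No paired analysis was made because the replicate numbers of the hepatectomy groups follow accession order and pair no libraries. The titles of day 2 replicate 1 and day 14 replicate 1 begin with the same number, and its meaning is not stated. With a pseudocount of 0.1 the sign turned for Srebf2 (day 2 against normal control, -0.00174). With quantile scaling the sign turned for Cyp51 (day 2 against normal control, -0.0994), Hsd17b7 (day 2 against normal control, -0.0129), Srebf2 (day 2 against normal control, -0.0736), Ebp (day 14 against normal control, -0.0581), Msmo1 (day 14 against day 2, -0.0109). With the length and GC trend removed the sign turned for Ggps1 (day 2 against normal control, 0.0656), Srebf2 (day 2 against normal control, -0.19), Dhcr7 (day 14 against day 2, 0.0268). Under no filter on low values the counts moved to 1 members called (day 2 against normal control), 691 genes called (day 14 against normal control), 0 members called (day 14 against normal control), 0 members called (day 14 against day 2). Under length and GC trend removed the counts moved to 1737 genes called (day 2 against normal control), 486 genes called (day 14 against normal control), 1 members called (day 14 against normal control). Under a fit of the 2 compared groups alone the counts moved to 3239 genes called (day 14 against normal control), 6 members called (day 14 against normal control), 996 genes called (day 14 against day 2), 0 members called (day 14 against day 2). Under filter at 5 FPKM the counts moved to 3 members called (day 14 against day 2). Leaving out each library in turn gave, for day 2 against normal control, -0.17 to 0.65 for Hmgcs1, -0.32 to 0.66 for Lss, -0.23 to 0.55 for Cyp51, -0.28 to 0.86 for Msmo1, -0.31 to 0.41 for Hsd17b7, -0.12 to 0.25 for Srebf2, -0.26 to 0.43 for Nsdhl, 92 to 2971 for genes called, 0 to 5 for members called. Leaving out each library in turn gave, for day 14 against normal control, 0 to 2097 for genes called, 0 to 4 for members called, -0.73 to 0.31 for Acat2, -1.01 to 0.037 for Fdps, -0.64 to 0.45 for Fdft1, -0.69 to 0.26 for Sqle, -0.0615 to 0.94 for Mvd, -0.39 to 0.82 for Msmo1, -0.15 to 0.43 for Ebp, -0.0528 to 0.13 for Ggps1. Leaving out each library in turn gave, for day 14 against day 2, 17 to 2472 for genes called, 0 to 4 for members called, -0.999 to 0.0916 for Fdft1, -0.97 to 0.0186 for Sqle, -0.44 to 0.32 for Dhcr7, -0.65 to 0.61 for Msmo1, -0.28 to 0.51 for Stard4, -0.0506 to 0.31 for Mylip, -0.68 to 0.0104 for Nsdhl.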
